A study of Mus musculus with 12 samples.

Results

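The Toll-like receptor genes of the mouse were examined in bone marrow-derived macrophages (BMDMs) given a BET inhibitor and an immune complex. The members are the 10 genes Tlr1 to Tlr9 and Tlr13, chosen by symbol alone, out of 24421 symbols in the count table. Tlr11 had 1 count in 1 of the 12 libraries and Tlr12 had 0 counts, which allows a level of up to 0.0277 CPM (counts scaled to a common library size) over the 12 libraries, with counting error only. BMDMs were grown from the bone marrow of C57BL/6 mice for 5 days with 100 ng/mL of M-CSF and a change of medium on day 3. For 4 hours they then received either I-BET151 (iBET) at 5.0 µM, a small molecule that blocks the acetyl-lysine pocket of BET bromodomain proteins, or DMSO, given in the labels as 5%. No DMSO content is given for the iBET groups, so whether the vehicle was matched is not known. A difference in vehicle and the drug itself cannot be told apart here. Each treatment was combined with ovalbumin alone (Ova) or with ovalbumin opsonised by IgG into an immune complex (IC), which engages Fc gamma receptors. The labels describe drug and stimulus as simultaneous whereas the study's methods have the drug precede the stimulus, and which holds for these libraries is not known. The 4 groups were named DMSO Ova, DMSO IC, iBET Ova and iBET IC, and each held 3 libraries, 1 from each of mice A, B and C. All 4 groups thus received ovalbumin, and all mice were wild type.

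Toll-like receptors are the pattern recognition receptors with which macrophages detect microbial molecules. One set sits at the cell surface and binds lipoproteins, lipopolysaccharide and flagellin, while another is carried to endosomes and binds nucleic acids. Ligand binding recruits the adaptors MyD88 or TRIF, which leads to NF-kB and interferon regulatory factor activity and to the transcription of cytokine genes. BET proteins read acetylated histones at active enhancers and promoters and help recruit the elongation machinery.

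Libraries held 7.55 M to 17.39 M counts in total. In mouse A's DMSO Ova library the ribosomal precursor Rn45s took 77.4% of the counts, which left 1.77 M on other genes, against at least 7.25 M in each of the other 11 libraries. The range of iBET changes in Ova and some IC changes in DMSO are given without it beside the changes per mouse. The DMSO Ova levels, ratios, sums and shares, the correlations and the main differences between the IC responses include it. The macrophage markers Adgre1, Csf1r, Cd68, Itgam, Mertk, Fcgr1 and Lyz2 were all detected, with a summed level between 5969 and 7948 CPM per library. The plasmacytoid dendritic cell, T and NK cell and mast cell lists each summed to at most 0.99 CPM in any library, with Klk1 and the mast cell and basophil markers Cpa3, Mcpt8 and Ms4a2 at 0.

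The table held no sequence, so the promoters were read from RefSeq on GRCm38.p6, in windows of 300 bases of which 250 precede the start site. Windows were found for 8 of the 10 members, not for Tlr4 and Tlr7. Both strands were searched for the PU.1 core GAGGAAG (PU.1 is the lineage factor of macrophages), AP-1 TGANTCA, the interferon-stimulated element GAAANNGAA, the NF-kB motif, TATAAA and CCAAT. Positions count from the RefSeq start site as 0. Of the stretches below, that of Tlr2 was chosen because this member moved apart from the rest. Those of Tlr13, Tlr9 and Tlr8 are examples, since each of the 8 members with a window held at least 1 motif. The stretches stop at the start site of RefSeq or of GENCODE vM21, whichever lies further upstream, and capitals mark a motif match.
Tlr2 (chr3:83841768-83841858, minus strand): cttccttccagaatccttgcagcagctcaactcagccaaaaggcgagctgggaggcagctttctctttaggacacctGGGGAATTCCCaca
Tlr13 (chrX:106143025-106143203, plus strand): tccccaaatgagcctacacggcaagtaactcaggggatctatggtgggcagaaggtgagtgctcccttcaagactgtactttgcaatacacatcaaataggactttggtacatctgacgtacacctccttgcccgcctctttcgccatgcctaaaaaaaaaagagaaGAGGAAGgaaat
Tlr9 (chr9:106222348-106222597, plus strand): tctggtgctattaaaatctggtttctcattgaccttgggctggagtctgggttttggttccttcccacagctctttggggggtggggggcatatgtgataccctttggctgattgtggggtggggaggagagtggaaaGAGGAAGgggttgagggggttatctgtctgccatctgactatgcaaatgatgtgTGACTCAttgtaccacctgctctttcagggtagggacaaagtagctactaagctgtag
Tlr8 (chrX:167264330-167264579, minus strand): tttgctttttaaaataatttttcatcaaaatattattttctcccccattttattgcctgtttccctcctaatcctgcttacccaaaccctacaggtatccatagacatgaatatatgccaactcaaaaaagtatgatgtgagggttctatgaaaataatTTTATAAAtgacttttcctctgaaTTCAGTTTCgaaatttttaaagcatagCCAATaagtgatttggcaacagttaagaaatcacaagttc
In the Tlr2 stretch the capitals mark a pair of overlapping NF-kB matches at -173 and -172, and a further match, GGGACATCCC, lay at -8. The GENCODE start site of Tlr2 lies 159 bases upstream of that of RefSeq, so the match at -8 is inside the GENCODE gene. The only other member window with an NF-kB match was that of Tlr3, at -211, and 8.46% of the 32851 windows in the table held one. In Tlr13 the capitals mark a PU.1 core at -83. Tlr9 held PU.1 cores at -112 and, on the other strand, at 11, and an AP-1 match at -58. The PU.1 core was also found in a Tlr1 window, so that 3 of the 10 member windows held it, against 13.6% of all windows. In Tlr8 the capitals mark overlapping TATA matches at -91 and -89, an interferon-stimulated element at -67 and a CCAAT box at -40. The AP-1 motif was held by 1 of the 10 member windows, against 7.81% of all windows. The interferon-stimulated element was held by 2, of Tlr8 and Tlr6, against 8.56%, and the TATA motif by 2, again of Tlr8 and Tlr6, against 13.6%. CCAAT was held by 3, of Tlr8, Tlr1 and Tlr5, against 37.4%. Such matches are letters in these windows and not measured binding.

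At baseline the endosomal receptor genes supplied most of the Toll-like receptor transcripts. Levels between genes were compared as CPM per kilobase of exon. In DMSO Ova, Tlr13 led with 76.5 ± 11.5 CPM per kb (mean ± SD, n = 3), followed by Tlr8 (21.4 ± 2.51), Tlr4 (21.0 ± 1.38) and Tlr7 (19.6 ± 0.878), whose library ranges overlapped. Tlr2 came next with 14.6 ± 2.74 CPM per kb, and Tlr1, Tlr6, Tlr3 and Tlr9 formed a lower tier between 4.09 and 2.52 CPM per kb in which each neighbour overlapped the next. Tlr5 was last, with 0.313 ± 0.0217 CPM per kb. The order within a group was the same on the TPM scale.

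**Figure D1:**
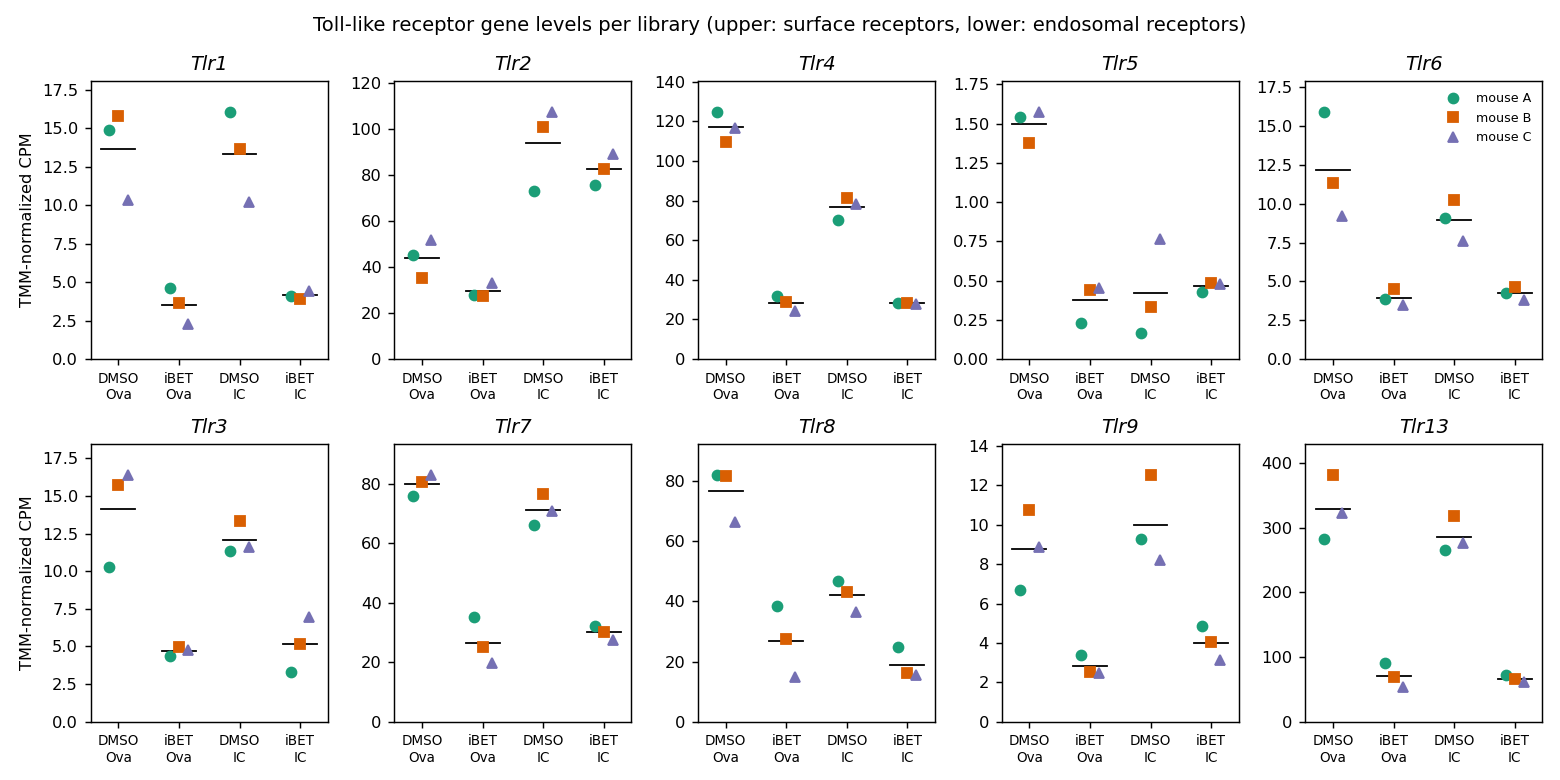
TMM-normalized CPM of each of the 10 Toll-like receptor genes (vertical axis, linear and starting at 0, scaled separately per gene) in the 4 groups, with 1 point per library, colour and shape marking the mouse and the bar the group mean. In 8 of the 10 panels the means of both iBET groups lie below both DMSO means. Tlr2 instead is highest in the IC groups, and Tlr5 is high in DMSO Ova alone.

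iBET lowered the Toll-like receptor genes almost as a block. The comparison asked how the receptor genes differed between iBET and DMSO with and without Fc gamma receptor engagement. In Ova, 9 of the 9 members that passed the filter on low counts were called lower at an adjusted p under 0.05, against 14.2% of 11468 genes tested (31.3% were called in either direction and 17.1% higher). The iBET Ova libraries lay wholly below the DMSO Ova libraries for these 9 genes, and this held for 19.9% of all genes. Their median log2 change was -1.65 against 0.02 over all genes. In IC, 8 of 9 were called lower against 15.8% of genes tested (34.8% in either direction and 19% higher), and the same number did not overlap, against 22.3% of genes, with a median log2 change of -1.27 against -0.00. Tlr2 was the exception. The 9 genes had at least 13 counts in every library, so they did not pass the filter through 1 group. The RNA is from bulk cultures, in which fewer cells of a type and less RNA per cell cannot be told apart.

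Levels of cell type markers were also set side by side for iBET and DMSO. The macrophage marker sum ranged from 6178 to 7311 CPM in DMSO Ova and from 6690 to 7948 CPM in iBET Ova, and from 5969 to 6790 CPM in DMSO IC and from 7129 to 7913 CPM in iBET IC. Lyz2 alone supplied 2613 to 4361 CPM per library, so the sum says little of the other markers. Tested singly, 1 of the 7 was called higher with iBET in Ova, Mertk, a receptor for the uptake of dead cells (0.77, adjusted p = 0.0354, SE 0.25). In IC 2 were called higher, Mertk (1.25, adjusted p = 0.00244, SE 0.26) and Lyz2, the lysozyme gene (0.41, adjusted p = 0.0222, SE 0.12). None of the 7 was called lower in edgeR, and 1, Fcgr1, had a negative change with an unadjusted p under 0.05, in IC (-0.72, adjusted p = 0.0637, SE 0.28). In Ova its change was -0.47 (adjusted p = 0.230, SE 0.28), and it was lower in 3 of 3 mice in either stimulus. The study itself reported reduced Fcgr1 in iBET-treated BMDMs, by RNA-seq and by qPCR. The dendritic cell list, of which 6 of 6 genes were in the table and 1 passed the filter, summed to between 0.23 and 0.663 CPM in DMSO Ova and between 0.677 and 1.21 CPM in iBET Ova. With IC the sum of this list ranged from 0.667 to 1.18 CPM in DMSO and from 1.20 to 1.49 CPM in iBET. These sums are near the detection limit, since Zbtb46 had 78 counts over the 12 libraries and Flt3, the next highest, had 19. The neutrophil list, with 6 of 7 genes in the table, lay between 7.70 and 41.2 CPM and overlapped between groups. The part of these lists in the result was not tested.

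**Figure D2:**
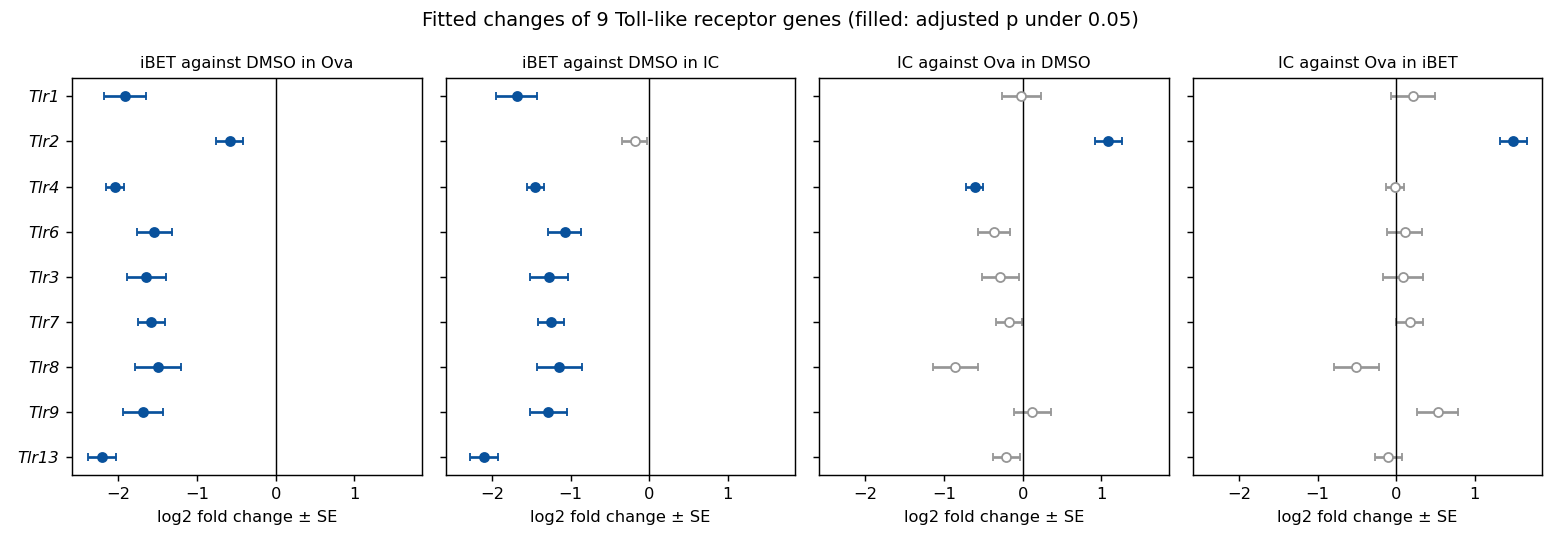
Fitted log2 fold changes with their SE (horizontal axis) for the 9 Toll-like receptor genes that passed the filter, surface receptors above and endosomal receptors below, in the 4 comparisons named over the panels. Filled points have an adjusted p under 0.05. All 9 are left of 0 for iBET in Ova, 8 are filled for iBET in IC, and with IC only Tlr2 (both arms) and Tlr4 (DMSO arm) are filled.

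Among the surface receptors, Tlr2 encodes the shared subunit of the lipoprotein receptors (GRCm38/mm10, chr3:83836272-83841767). Its levels in mice A, B and C were 45.2, 35.3 and 51.7 CPM in DMSO Ova and 28.01, 27.4 and 32.8 CPM in iBET Ova. With IC they were 72.8, 100.9 and 107.3 CPM in DMSO and 75.6, 82.7 and 89.2 CPM in iBET. Every IC library thus stood above every Ova library, and with IC the iBET and DMSO libraries overlapped. Tlr2 rose with IC by 1.09 on the log2 scale (adjusted p = 0.00747, SE 0.17) in DMSO and by 1.49 (adjusted p = 0.00157, SE 0.17) in iBET, in 3 of 3 mice each. The iBET change was -0.58 in Ova (adjusted p = 0.0212, SE 0.17) and -0.18 in IC (adjusted p = 0.407, SE 0.16), where the 95% interval ran from -0.54 to 0.17. The IC response was larger in iBET than in DMSO by 0.40 (SE 0.24, unadjusted p = 0.117), which did not pass the test. The IC call in DMSO was lost without mouse B (0.88, adjusted p = 0.602), without mouse C (1.13, adjusted p = 0.124) and when its 2 groups were fitted alone (1.09, adjusted p = 0.137), and in iBET without mouse B (1.44, adjusted p = 0.323). These losses were not particular to Tlr2, since over all genes the calls for IC in DMSO went from 140 of 11468 to 0 of 11484 without mouse B, 10 of 11553 without mouse C and 5 of 11141 with the groups alone, and in iBET from 40 to 0 without mouse B. The call for iBET in Ova was lost on omission of the DMSO Ova library of mouse C (-0.43, adjusted p = 0.113), the iBET Ova library of mouse A (-0.55, adjusted p = 0.0694) or of mouse B (-0.53, adjusted p = 0.0761), and without mouse B (-0.68, adjusted p = 0.0877) or mouse C (-0.51, adjusted p = 0.109).

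Tlr1 and Tlr6 encode the partners with which the TLR2 protein pairs to distinguish triacylated from diacylated lipopeptides, and they lie side by side on the minus strand of chromosome 5 (chr5:64924679-64933563 and chr5:64952031-64960097), 18468 bases apart. They are close relatives, so reads shared between them could have been split and their separate values are uncertain. Tlr1 had 14.9, 15.8 and 10.4 CPM in DMSO Ova, 4.63, 3.64 and 2.26 CPM in iBET Ova, 16.1, 13.6 and 10.2 CPM in DMSO IC and 4.11, 3.88 and 4.43 CPM in iBET IC. It fell with iBET to 26.5% of the DMSO level in Ova (log2 change -1.92, adjusted p = 0.000219, SE 0.27) and to 31.1% in IC (-1.69, adjusted p = 0.000331, SE 0.26). Tlr6 had 15.9, 11.3 and 9.20 CPM in DMSO Ova, 3.86, 4.52 and 3.50 CPM in iBET Ova, 9.09, 10.2 and 7.63 CPM in DMSO IC and 4.27, 4.65 and 3.84 CPM in iBET IC. Each iBET library of either gene lay below each DMSO library. Tlr6 fell to 34.4% of the DMSO level in Ova (-1.54, adjusted p = 0.000236, SE 0.22) and to 47.6% in IC (-1.07, adjusted p = 0.00184, SE 0.21), the latter call being lost without mouse B (-1.03, adjusted p = 0.0545), where 1769 of 11484 genes were called against 3987 of 11468 with all mice. Neither gene was called for IC in either arm, with log2 changes between -0.36 and 0.21. Per mouse, the IC change of Tlr6 was -0.80, -0.15 and -0.27 in DMSO and 0.14, 0.04 and 0.13 in iBET, so its sign differed between the arms in 3 of 3 mice, and the test of that difference gave 0.47 (SE 0.30, unadjusted p = 0.146, adjusted p = 1.00).

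Tlr2 rose with IC and fell less with iBET than its partners, so the ratio of their transcripts differed between groups. The Tlr2 level per kb was 3.80 ± 1.57 times that of Tlr1 in DMSO Ova, 10.4 ± 5.04 times in iBET Ova, 8.31 ± 3.33 times in DMSO IC and 22.1 ± 1.63 times in iBET IC. Over Tlr6 the ratios were 4.77 ± 1.90, 9.35 ± 2.09, 13.2 ± 3.84 and 24.2 ± 3.93 in the same order. For both partners the 3 iBET IC libraries exceeded the other 9. The ratios over Tlr1 in DMSO Ova (2.48 to 5.54) and DMSO IC (5.03 to 11.7) overlapped, whereas those over Tlr6 did not.

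Tlr4 encodes the lipopolysaccharide receptor (chr4:66827584-66930284, plus strand). It had 124.8, 109.5 and 116.6 CPM in DMSO Ova, 31.9, 28.6 and 24.5 CPM in iBET Ova, 70.2, 81.2 and 78.3 CPM in DMSO IC and 28.5, 28.1 and 27.6 CPM in iBET IC. The DMSO IC libraries lay between the DMSO Ova libraries and the iBET libraries with no overlap on either side, and the 6 iBET libraries stayed between 24.5 and 31.9 CPM. iBET reduced Tlr4 to 24.3% of the DMSO level in Ova (-2.04, adjusted p = 2.40e-07, SE 0.11) and to 36.7% in IC (-1.45, adjusted p = 2.01e-06, SE 0.11). IC lowered it in DMSO (-0.61, adjusted p = 0.0182, SE 0.11, 3 of 3 mice), while the change in iBET was -0.02 (adjusted p = 0.997, SE 0.11). The difference between these responses was 0.59 (SE 0.15), with an unadjusted p of 0.00227 and 3 of 3 mice in the same direction, and did not pass adjustment over all genes (adjusted p = 1.00). The IC call in DMSO was lost on omitting the mouse B library of DMSO Ova (-0.65, adjusted p = 0.0554), that of mouse C (-0.61, adjusted p = 0.0663) or the DMSO IC library of mouse C (-0.62, adjusted p = 0.0591), without mouse B (-0.70, adjusted p = 0.589) or mouse C (-0.63, adjusted p = 0.226), and with its groups fitted alone (-0.61, adjusted p = 0.152), while the fitted change moved little. The calls over all genes fell in these settings too, to between 0 and 72. The Tlr2 to Tlr4 ratio per kb was 0.694 ± 0.114 in DMSO Ova, 1.95 ± 0.457 in iBET Ova, 2.24 ± 0.311 in DMSO IC and 5.43 ± 0.536 in iBET IC.

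Tlr5, the flagellin receptor gene (chr1:182954788-182976044, plus strand), was near the detection limit and did not pass the filter on low counts. It had 3, 18 and 19 counts in the DMSO Ova libraries of mice A, B and C, 3, 4 and 4 in iBET Ova, 2, 3 and 8 in DMSO IC and 8, 5 and 4 in iBET IC. As CPM, the DMSO Ova libraries (1.54, 1.38 and 1.58) lay above the other 9, the highest of which had 0.763 CPM. Fitted without a filter, Tlr5 changed by -2.01 with iBET in Ova (adjusted p = 0.0134, SE 0.54) and by 0.15 with iBET in IC (adjusted p = 0.927, SE 0.58). The IC change was -1.81 in DMSO (adjusted p = 0.174, SE 0.53) and 0.35 in iBET (adjusted p = 0.965, SE 0.60).

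The endosomal members fell together under iBET. Tlr13, which in mice binds bacterial ribosomal RNA and is absent from the human genome (chrX:106143204-106160493, plus strand), was the most abundant member in the DMSO groups and showed the largest fitted fall. It had 283.0, 381.7 and 323.1 CPM in DMSO Ova, 91.1, 68.4 and 54.4 CPM in iBET Ova, 264.7, 317.8 and 275.7 CPM in DMSO IC and 71.4, 66.5 and 61.6 CPM in iBET IC. The lowest of the 6 DMSO libraries thus stood at 264.7 CPM and the highest of the 6 iBET libraries at 91.1 CPM. iBET left 21.6% of the DMSO level in Ova (-2.21, adjusted p = 3.78e-06, SE 0.18) and 23.3% in IC (-2.10, adjusted p = 3.74e-06, SE 0.18). IC changed Tlr13 by -0.21 in DMSO (adjusted p = 0.750, SE 0.17) and by -0.10 in iBET (adjusted p = 0.946, SE 0.17), with overlapping libraries.

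Tlr7 and Tlr8 encode receptors for single-stranded RNA and its degradation products, and are neighbours on the minus strand of chromosome X (chrX:167304929-167330558 and chrX:167242696-167264329). Tlr7 had 76.0, 80.7 and 83.1 CPM in DMSO Ova, 35.2, 25.0 and 19.6 CPM in iBET Ova, 66.2, 76.7 and 70.9 CPM in DMSO IC and 32.3, 30.2 and 27.4 CPM in iBET IC. It fell with iBET to 33.4% of the DMSO level in Ova (-1.58, adjusted p = 3.20e-05, SE 0.17) and to 42.2% in IC (-1.24, adjusted p = 0.000137, SE 0.17). Tlr8 had 82.2, 81.6 and 66.3 CPM in DMSO Ova, 38.6, 27.4 and 15.005 CPM in iBET Ova, 46.7, 43.1 and 36.6 CPM in DMSO IC and 24.9, 16.3 and 15.6 CPM in iBET IC. Its mean was highest in DMSO Ova and lowest in iBET IC, and within each stimulus the iBET libraries lay below the DMSO libraries. iBET lowered Tlr8 to 35.5% in Ova (-1.49, adjusted p = 0.00275, SE 0.29) and to 45.3% in IC (-1.14, adjusted p = 0.0107, SE 0.29), and both calls were lost without mouse B (-1.45, adjusted p = 0.0849, and -1.03, adjusted p = 0.165), where all-gene calls fell from 3593 to 1310 in Ova and from 3987 to 1769 in IC. With IC in DMSO, Tlr8 changed by -0.86 (adjusted p = 0.225, SE 0.29), and the DMSO IC libraries lay below the DMSO Ova libraries in 3 of 3 mice. When the mouse was entered as a block, this change was called, at -0.88 (adjusted p = 0.0174, SE 0.17) in edgeR and -0.88 (adjusted p = 0.000488, SE 0.19) in DESeq2, settings in which 315 and 437 of 11468 genes were called against 140 without the block. The corresponding change of Tlr7 was -0.17 (adjusted p = 0.815, SE 0.17), so the Tlr7 to Tlr8 ratio per kb went from 0.927 ± 0.153 in DMSO Ova to 1.50 ± 0.234 in DMSO IC, while it was 0.918 ± 0.200 in iBET Ova and 1.44 ± 0.263 in iBET IC.

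Tlr3 encodes the receptor for double-stranded RNA, which signals through TRIF (chr8:45395665-45411080, minus strand). Its exons are overlapped on the opposite strand by Gm45542, and since the use of strand in counting was not stated the reads of the pair cannot be told apart. Tlr3 had 10.3, 15.7 and 16.4 CPM in DMSO Ova, 4.40, 4.96 and 4.74 CPM in iBET Ova, 11.4, 13.3 and 11.6 CPM in DMSO IC and 3.31, 5.14 and 6.95 CPM in iBET IC. It fell to 31.9% of the DMSO level with iBET in Ova (-1.65, adjusted p = 0.000362, SE 0.25) and to 41.4% in IC (-1.27, adjusted p = 0.00152, SE 0.24), the latter lost without mouse B (-1.21, adjusted p = 0.0643). Tlr9 encodes the receptor for unmethylated CpG DNA (chr9:106222598-106226883, plus strand). It had 6.68, 10.7 and 8.87 CPM in DMSO Ova, 3.40, 2.54 and 2.48 CPM in iBET Ova, 9.26, 12.5 and 8.20 CPM in DMSO IC and 4.86, 4.07 and 3.12 CPM in iBET IC. The iBET libraries lay below the DMSO libraries for both genes. Tlr9 fell to 31.1% in Ova (-1.69, adjusted p = 0.000355, SE 0.25) and to 41.1% in IC (-1.28, adjusted p = 0.00119, SE 0.24). Neither gene was called for IC, and the largest of their IC changes was 0.53 for Tlr9 in iBET (adjusted p = 0.696, SE 0.26).

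The stimulus itself moved few members. Of the 9 tested, 2 were called with IC in DMSO, Tlr2 higher and Tlr4 lower, where 1.22% of genes were called, and 3 had an unadjusted p under 0.05. In iBET 1 was called, Tlr2, against 0.349% of genes. The count in DMSO dropped to 1 without the mouse B or C library of DMSO Ova or the DMSO IC library of mouse C, and to 0 without mouse B or mouse C, and the count in iBET dropped to 0 without mouse B. Over all genes the calls in DMSO fell likewise, from 140 of 11468 to 45, 71 and 72 without those 3 libraries in turn, to 0 without mouse B and to 10 without mouse C, and those in iBET from 40 to 0 without mouse B. The difference between the 2 IC responses was positive for the 9 tested members, from 0.11 to 0.59 on the log2 scale, but edgeR called 0 of them (percentage called among all genes, 0), 1 had an unadjusted p under 0.05 and DESeq2 also called 0. The same values are the amount by which the fitted iBET reduction was smaller with IC than with Ova. Their median was 0.37, against -0.0007 over all genes. The 9 values come from the same libraries and are not independent. Those of Tlr1, Tlr3 and Tlr13 turned negative in some fits that left out a library or a mouse.

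The composition of the receptor transcripts changed accordingly. Summed over the 10 members, the level was 166 ± 9.77 CPM per kb in DMSO Ova, 49.4 ± 9.88 in iBET Ova, 152 ± 13.1 in DMSO IC and 65.1 ± 0.929 in iBET IC. Without Tlr2 the sums were 151 ± 12.0, 39.6 ± 10.6, 121 ± 9.69 and 37.7 ± 3.08 CPM per kb. Tlr2 made up 8.88% ± 2.00 of the sum in DMSO Ova, 20.5% ± 5.93 in iBET Ova, 20.3% ± 3.13 in DMSO IC and 42.1% ± 3.95 in iBET IC. Tlr13 made up 45.9% ± 4.23, 33.3% ± 1.98, 43.6% ± 1.13 and 23.7% ± 1.47 in the same order. In iBET IC, Tlr2 (27.4 ± 2.25 CPM per kb) therefore stood above Tlr13 (15.4 ± 1.14) with no overlap, whereas in the other groups Tlr13 led. Tlr2 was second in iBET Ova (9.75 ± 0.992 CPM per kb), where its libraries overlapped those of Tlr8, and second in DMSO IC (31.1 ± 6.09), where they did not overlap those of a neighbour.

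**Figure D3:**
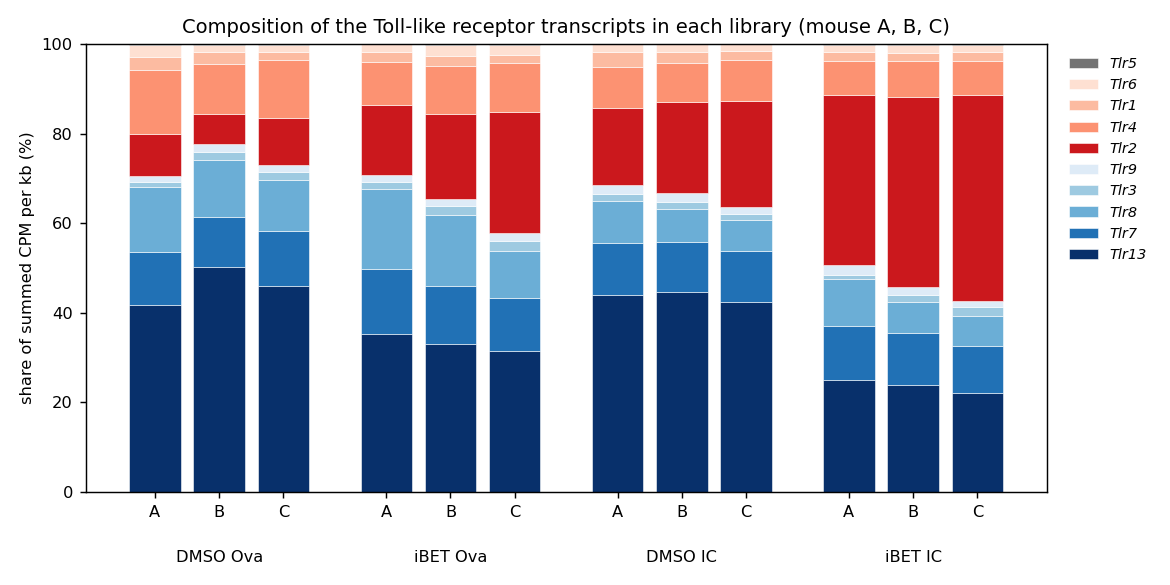
Share of each Toll-like receptor gene (vertical axis, %) in the summed CPM per kb of the 10 members, with 1 stacked bar per library, blue for endosomal and red for surface receptors and Tlr5 too small to see. The Tlr2 segment takes 6.63% to 10.5% of the bars in DMSO Ova and 37.9% to 45.8% in iBET IC, while the Tlr13 segment at the base shrinks from at least 41.7% to at most 25.1%.

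The mice differed in how far the genes fell. In Ova the median change per mouse over the 9 members was -1.19 in mouse A, -1.68 in mouse B and -2.07 in mouse C, and in IC it was -1.06, -1.40 and -1.22. Mouse A had the smallest fall for 6 of the 9 genes in either stimulus. In iBET Ova it was highest for 6 of the 9 and mouse C was lowest for 7. In Ova the reference library of mouse A is the one with 77.4% Rn45s. Without that library the 9 members were again called lower in Ova, where 15.1% of 11667 genes were called lower (29% in either direction). Their changes then ranged from -2.35 (Tlr13) to -0.62 (Tlr2). Tlr5 also passed the filter there, but only through the DMSO Ova libraries of mice B and C (18 and 19 counts). Since Tlr5 passed only through the group where it is high, its lower call in iBET Ova is not counted. For IC in DMSO, omission of the Rn45s-rich library left Tlr2 at 1.09 (adjusted p = 0.0291) and Tlr4 at -0.58 (adjusted p = 0.0391). It took Tlr6 from -0.36 to -0.22, Tlr3 from -0.28 to -0.43, Tlr13 from -0.21 to -0.32 and Tlr9 from 0.12 to 0.0033, none of these 4 being called either way.

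Across the 12 libraries the members other than Tlr2 and Tlr5 tracked each other. The 28 pairs among these 8 genes had Pearson correlations of log2 CPM between 0.73 and 0.99, with a median of 0.91. The libraries share the split by drug, and after the group means were removed the correlations ran from -0.46 to 0.91 with a median of 0.40. The pair with the highest value was Tlr7 and Tlr13, at 0.99, and 0.91 within groups. The 8 pairs that include Tlr2 ran from -0.18 (with Tlr8) to 0.43 (with Tlr9). Among 11130 genes with a mean of at least 1 CPM, the pattern of Tlr2 was most like that of Clec4e (r = 0.96), a C-type lectin receptor, and of Tnfaip3 (r = 0.95), a feedback inhibitor of NF-kB. For Tlr4 these were Wasf2 (r = 0.995) and Plekha2 (r = 0.99), for Tlr13 Fblim1 and Pid1 (both r = 0.99), for Tlr7 Gcnt1 and Tlr13 (both r = 0.99), and for Tlr8 Tmem37 (r = 0.98) and Gm5431 (r = 0.97). For Tlr1 they were Pdlim5 and Cav2 (both r = 0.98), for Tlr6 C5ar2 (r = 0.99) and Rp2h (r = 0.98), for Tlr3 Cd276 and Rarg (both r = 0.97), and for Tlr9 Plxdc1 and the chemokine receptor gene Ccr1 (both r = 0.98). These values over 12 libraries are descriptions.

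The genes that act with and below the receptors went both ways with iBET. Of 40 such genes, all tested, 8 were called lower and 5 higher in Ova, with a median log2 change of 0.06, where 14.2% of all genes tested were called lower and 17.1% higher, with a median of 0.02. In IC 9 were called lower and 4 higher, with a median of 0.09, against 15.8% lower, 19% higher and a median of -0.00 over all genes. The 13 called in each stimulus are a share near that of all genes (31.3% and 34.8%), so the counts are no result about these genes as a set. With IC, 1 was called in each arm, both higher, where 1.22% (DMSO) and 0.349% (iBET) of all genes were called. With the mouse as a block in edgeR the calls were 9 lower and 8 higher in Ova and 9 lower and 6 higher in IC. When 1 library or 1 mouse was left out, 2 to 9 were called lower and 1 to 6 higher in Ova, and 4 to 9 lower and 2 to 6 higher in IC, the fewest lower calls in either stimulus coming without mouse B. Leaving out any 1 of the 6 Ova libraries took the higher calls in Ova from 5 to 3. Among the co-receptors, Cd180, which encodes a relative of the receptors that lacks their signalling domain, went from 335 ± 35.2 to 86.5 ± 16.0 CPM with iBET in Ova (-1.95, adjusted p = 4.46e-06, SE 0.16) and, with IC, from 352 ± 37.8 to 88.1 ± 14.8 CPM (-1.997, adjusted p = 2.94e-06, SE 0.16). Ly96, encoding the MD-2 subunit that presents lipopolysaccharide to TLR4, was low and variable, at 7.94 ± 4.85 CPM in DMSO IC and 1.77 ± 0.113 CPM in iBET IC (-2.16, adjusted p = 0.0104, SE 0.55), a call lost without mouse B (adjusted p = 0.0971). In Ova its change was -1.36 (adjusted p = 0.0789, SE 0.54). Exons of Cd180 are overlapped by Mast4 on the opposite strand.

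Adaptor genes were called both ways with iBET, while the kinase genes called with iBET, Ikbke and Irak2, were lower. Ikbke changed by -0.63 in Ova (adjusted p = 0.00245, SE 0.13) and by -1.14 in IC (adjusted p = 2.76e-05, SE 0.12). Irak2 changed by -0.53 in Ova (adjusted p = 0.00769, SE 0.13) and by -0.46 in IC (adjusted p = 0.0110, SE 0.12). Both calls in Ova, and that of Irak2 in IC, were lost without mouse B or C. Ticam2, which encodes the TRAM adaptor of TLR4 and shares exons with Tmed7, fell with iBET from 24.0 ± 1.85 to 9.41 ± 2.16 CPM in Ova (-1.36, adjusted p = 0.000112, SE 0.17) and, with IC, from 21.8 ± 1.64 to 6.07 ± 0.610 CPM (-1.85, adjusted p = 1.05e-05, SE 0.18). Pik3ap1, which encodes the BCAP adaptor to phosphoinositide 3-kinase, fell from 897 ± 151 to 523 ± 121 CPM in Ova (-0.78, adjusted p = 0.0143, SE 0.21), a call lost without the mouse B library of DMSO Ova or without mouse B altogether (highest adjusted p = 0.173). Sarm1, encoding an adaptor of the same domain family with NAD-cleaving activity, rose from a low level, 0.886 ± 0.332 to 2.34 ± 0.0966 CPM in Ova (1.20, adjusted p = 0.0396, SE 0.40) and 0.633 ± 0.331 to 2.09 ± 0.788 CPM in IC (1.72, adjusted p = 0.00710, SE 0.42). In Ova that call was lost in 12 of 24 other settings, 7 of them omissions of 1 library, with a highest adjusted p of 0.228, and that in IC without mouse C (adjusted p = 0.0837). Peli1, a ubiquitin ligase gene of the pathway, rose by 0.88 in Ova (adjusted p = 0.000260, SE 0.13) and by 1.04 in IC (adjusted p = 5.98e-05, SE 0.13). Tollip, encoding an inhibitor of the IRAK kinases, rose by 0.63 in Ova (adjusted p = 0.00239, SE 0.13), lost without mouse B (adjusted p = 0.0530), and by 0.73 in IC (adjusted p = 0.000659, SE 0.12). The genes called with IC were Ikbke, a kinase gene of the interferon branch, in DMSO (0.83, adjusted p = 0.00583, SE 0.12) and Nfkb1, an NF-kB subunit gene, in iBET (0.76, adjusted p = 0.00771, SE 0.11). The Ikbke call with IC was lost without mouse B or C and with the groups fitted alone (highest adjusted p = 0.589). The Nfkb1 call was lost without either iBET library of mouse B and without mouse B or C (highest adjusted p = 0.946). Exons of Ikbke are overlapped on the opposite strand by Gm28913 and Gm28914, and those of Irak2 by Gm43963.

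**Figure D4:**
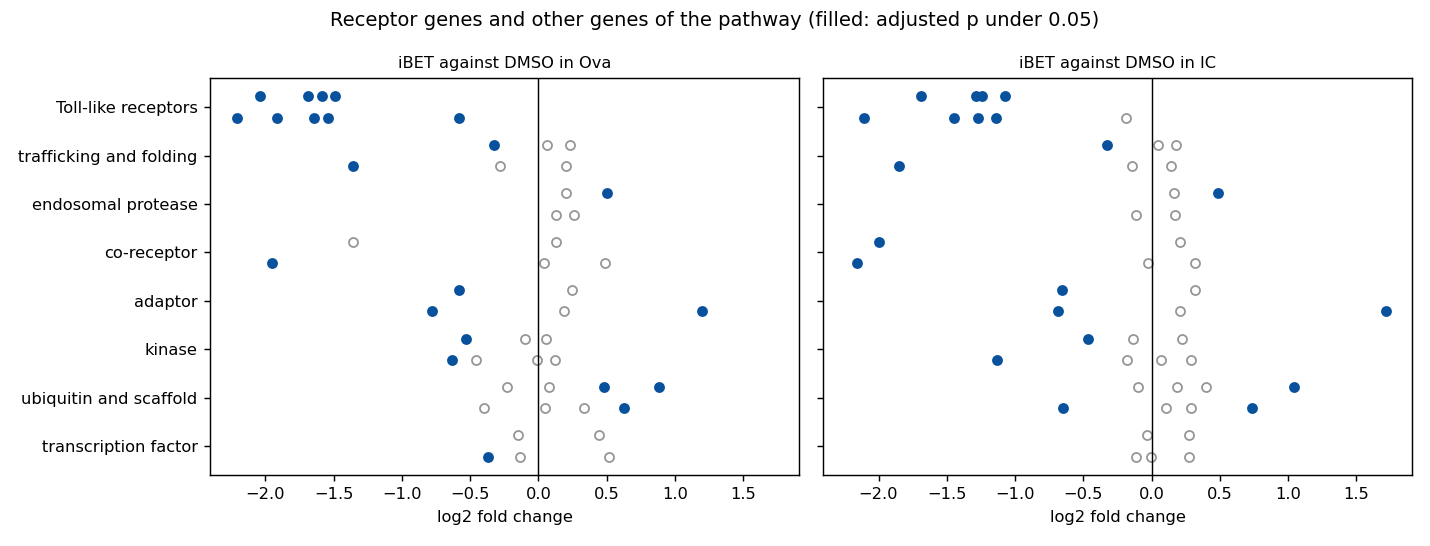
Log2 fold changes with iBET (horizontal axis) in Ova and in IC for the 9 tested Toll-like receptor genes in the top row and, below, for 40 other genes of the pathway grouped by role, 1 point per gene, with filled points at an adjusted p under 0.05. Ticam2, described in the text as an adaptor gene, is plotted in the trafficking and folding row. The receptor genes lie left of 0 in both panels, while the other rows straddle 0, with medians of 0.06 and 0.09 over the 40 genes.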

How the data were processed

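RNA was extracted from BMDMs (12 libraries, 4 groups of 3, groups and mice as labelled) and libraries were made with the SMARTer Pico kit. Per the submitters' processing notes the reads were handled with CASAVA, FastQC, Trim Galore, HISAT2 (mm10) and featureCounts. The gene annotation and the strand setting were not given in the sources used here. The authors deposited a count per gene symbol and, separately, a normalized signal. The signal equalled each library's count divided by 1 constant (largest relative gap 5.23e-15). Symbols were matched to GENCODE vM21 (98.5% of 24421) for positions and exon lengths.

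Counts were fitted with edgeR 4.0.16 (R 4.3.3) after filterByExpr (minimum count 10) left 11468 genes, with TMM scaling and a robust quasi-likelihood model of 1 term per group over 12 libraries. Two-sided p-values of 5 contrasts were corrected across those genes by the Benjamini-Hochberg method, with calls made below 0.05. Log2 CPM per library used a prior count of 2. The method was tested on simulated data.

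The members and lists were chosen with earlier results of these data known. One marker list is not reported here. Named genes were the 10 members, the 3 largest called rises and falls of the pathway list for iBET and every pathway gene called for IC. The kinase genes of that list called for iBET and the 2 genes most correlated with each tested member were also named. Alternatives were DESeq2 1.42.0, DESeq2 size factors, no or a stricter filter (10 counts throughout), the mouse as a block, 1 surrogate variable (sva 3.50.0), the compared groups alone, limma 3.58.1 on log2 of the deposited signal plus 1, removal of Rn45s, and leaving out every library, then every mouse, in turn.

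The pairing comes from the labels, which give the animal. On deviations from group means, the 18 same-mouse pairs had correlations from -0.07 to 0.54 (median 0.26) and the 36 pairs of different mice and groups from -0.50 to 0.27 (median -0.13).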

Additional observations from a re-analysis of the deposited data

How the results depend on the processing

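The iBET results kept their direction under all 25 alternatives for the 9 tested members. With iBET in Ova, 219 of 225 values kept their side of the threshold and 6 lost a call, and in IC 222 of 225 kept it and 3 lost a call. Members called with IC in DMSO fell from 2 to 0 with the compared groups fitted alone, where all-gene calls fell from 140 to 5, and ranged from 0 to 2 when a library or a mouse was left out. The corresponding ranges were 0 to 1 with IC in iBET, 7 to 10 with iBET in Ova and 5 to 8 with iBET in IC, whose lowest count came without mouse B, where all-gene calls fell from 3987 to 1769. A count of 10 includes Tlr5, which passed the filter there only through its DMSO Ova libraries. With mouse as a replicate block, 3 members were called with IC in DMSO in edgeR and in DESeq2, Tlr8 being added, while all-gene calls rose to 315 and 437, and no other member call changed.

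The signs of small changes depended on single animals. When a library or a mouse was left out, the IC change in DMSO ran from -0.21 to 0.15 for Tlr1 and from -0.066 to 0.30 for Tlr9. The IC change in iBET ran from -0.057 to 0.51 for Tlr1, from -0.11 to 0.10 for Tlr4 (0.0016 with limma on the deposited signal), from -0.18 to 0.36 for Tlr3, from -0.0067 to 0.43 for Tlr7 and from -0.26 to 0.12 for Tlr13. The difference between the IC responses ran from -0.0015 to 0.65 for Tlr1, from -0.014 to 0.69 for Tlr3 and from -0.056 to 0.33 for Tlr13. None of these was called, and the cause of the sign changes was not tested. Depth limited Tlr5, which had 2 to 4 counts in some libraries, while the other 9 had at least 13 in every library.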
